A study of Mus musculus with 12 samples.

Results

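Transcripts of 10 genes of Toll-like receptor and NF-κB signalling were examined in striatal RNA of male C57BL/6J mice that drank ethanol after an injection of varenicline or of saline. The members were taken by symbol from the deposited count table of 24421 genes: the pattern-recognition receptors Tlr2, Tlr3, Tlr4 and Tlr7, the interleukin-1 receptor gene Il1r1, the ligand gene Hmgb1, the adaptor gene Myd88, the NF-κB subunit genes Nfkb1 and Rela, and the inhibitor gene Nfkbia. All 10 were found, and all 10 were among the 15148 genes with enough counts to be tested. The rule takes genes by symbol and uses no measured value.

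The study holds 12 libraries. Of these, 6 came from mice given 2 mg/kg varenicline, a partial agonist of nicotinic acetylcholine receptors used to help people stop smoking, and 6 from mice given saline. Both groups drank 20% ethanol from a single tube in the Drinking-in-the-Dark test, 2 h per session starting 3 h into the dark phase, over 3 cycles of 2 days. All mice had a saline injection in the first cycle, after which the groups were formed with equal mean intake, and in the last 2 cycles the assigned injection preceded the second day's session by 30 min. Bilateral striatum was taken at the end of the final session, so every animal in both groups had just had access to ethanol, and the contrast is drug against vehicle in drinking mice. The age of the mice, and whether a library is 1 mouse, were not stated in the labels, and p-values therefore measure the spread between these libraries, which hold 13340420 to 27917715 counts each.

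Toll-like receptors recognise microbial molecules and molecules set free by damaged cells. Tlr2 and Tlr4 proteins act at the cell surface on lipoproteins and lipopolysaccharide, and Tlr3 and Tlr7 proteins act in endosomes on double-stranded and single-stranded RNA. The adaptor protein Myd88 carries the signal of these receptors other than Tlr3, and that of the interleukin-1 receptor, to kinases that release the NF-κB dimer of p50 (encoded by Nfkb1) and p65 (encoded by Rela) from its inhibitor IκBα (encoded by Nfkbia). In brain most Toll-like receptors are carried by microglia, Il1r1 by endothelial cells among others, and the pathway has been studied in relation to ethanol because ethanol exposure can engage it. NF-κB in turn induces Nfkbia, a feedback that ends the response.

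Some genes of the pathway are themselves known targets of NF-κB or of interferon factors, so the promoters of 4 members with a matching motif are printed here. RefSeq promoter sequences (GRCm38.p6, the assembly behind mm10) were at hand for 7 of the 10 members, with 9 start sites, each window running from 250 bases before to 50 bases after the start; Tlr4, Tlr7 and Nfkb1 had no entry. The κB consensus, searched on both strands, was present in 4 of these 9 windows, those of Tlr2, Tlr3, Nfkbia and 1 of the Il1r1 start sites, against 4.51% of all 32851 promoter windows. The relaxed letters GGGNNNNNCC, which every match to the κB consensus also contains, were found in 6 of the 9 and in 50.8% of all windows. The interferon response letters GAAANNGAAA were found in 1 of the 9, that of Myd88, and in 3.44% of all windows. In the sequences below, written 5′ to 3′ on the strand of the gene, capitals mark matches to the κB consensus or, for Myd88, to the interferon response letters.
Tlr2 promoter (chr3:83841559-83841858, minus strand): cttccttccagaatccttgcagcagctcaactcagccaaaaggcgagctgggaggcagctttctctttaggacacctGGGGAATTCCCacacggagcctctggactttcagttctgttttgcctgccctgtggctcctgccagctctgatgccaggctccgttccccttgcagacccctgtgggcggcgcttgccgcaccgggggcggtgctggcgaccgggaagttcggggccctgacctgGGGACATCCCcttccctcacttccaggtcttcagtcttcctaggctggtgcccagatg
Tlr3 promoter (chr8:45410331-45410630, minus strand): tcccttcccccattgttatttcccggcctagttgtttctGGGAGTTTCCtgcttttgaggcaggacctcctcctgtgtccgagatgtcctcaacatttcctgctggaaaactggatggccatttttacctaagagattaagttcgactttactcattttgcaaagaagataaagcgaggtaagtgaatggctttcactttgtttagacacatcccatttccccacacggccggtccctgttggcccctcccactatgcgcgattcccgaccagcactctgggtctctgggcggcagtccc
Nfkbia promoter (chr12:55492598-55492897, minus strand): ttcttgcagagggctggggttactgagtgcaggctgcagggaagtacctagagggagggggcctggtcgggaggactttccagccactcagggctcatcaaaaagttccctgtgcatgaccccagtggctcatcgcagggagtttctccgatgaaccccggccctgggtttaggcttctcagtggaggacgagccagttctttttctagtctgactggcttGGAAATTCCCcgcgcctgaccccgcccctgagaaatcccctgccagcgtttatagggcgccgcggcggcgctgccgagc
Myd88 promoter (chr9:119339969-119340268, minus strand): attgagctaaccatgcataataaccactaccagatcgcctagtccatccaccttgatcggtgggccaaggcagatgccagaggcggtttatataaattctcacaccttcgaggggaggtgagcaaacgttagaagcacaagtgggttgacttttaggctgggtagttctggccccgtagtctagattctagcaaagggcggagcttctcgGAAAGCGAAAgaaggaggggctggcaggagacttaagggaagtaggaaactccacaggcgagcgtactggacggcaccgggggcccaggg
The Tlr2 window held κB matches at 2 places, the first of them made of a pair of overlapping matches, and the Nfkbia window held 1, which began 29 bases before the start site. A match of letters is a description of the sequence and not evidence of binding.

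No member differed between varenicline and saline by more than the spread between libraries. In edgeR's quasi-likelihood test 0 of the 10 members passed an adjusted p of 0.05, and 0 of 10 reached an unadjusted p under 0.05, where 16.9% of all genes tested did; across all genes 0% passed the adjusted threshold. DESeq2 gave an adjusted p to 8 of the members and called 0 of them, where it called 387 of 12495 genes, 3.1%. At an unadjusted p under 0.05, DESeq2 and limma-voom each had 0 members, and the share of all genes at that threshold in these fits is not given. The 6 varenicline libraries and the 6 saline libraries overlapped in the level of all 10 members, whereas the groups did not overlap for 0.759% of the genes tested. The members' log2 fold changes, varenicline minus saline, ran from -0.04 for Tlr3 to 0.20 for Tlr2, with 7 higher and 3 lower and a median of 0.036, against 0.0074 for all genes. In size, their median change was 0.044 on the log2 scale, against 0.099 for all genes tested. Of all genes tested, 52.3% were higher.

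**Figure D1:**
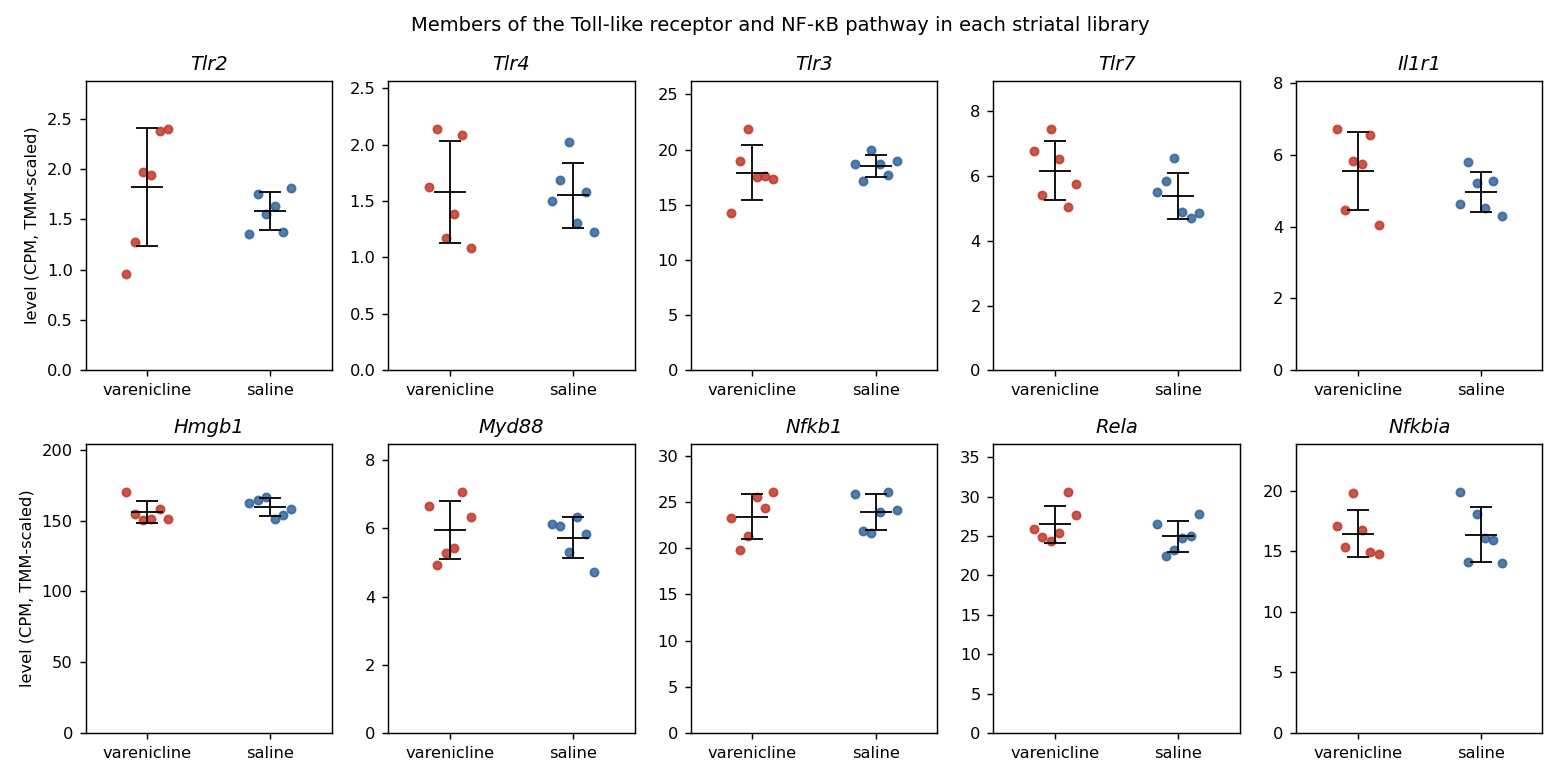
Level of each member in counts scaled to library size (CPM, with TMM factors, each axis from 0) in the 6 varenicline libraries, left, and the 6 saline libraries, right; points are libraries and bars the mean ± SD. The groups overlap in every panel, and the varenicline points of Tlr2 and Tlr3 are the more widely spread.

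Among the surface receptors, Tlr2 (ENSMUSG00000027995, chromosome 3, 83836272 to 83841608 on mm10) was the member with the largest fold change and was also scarce. It had 0.959, 1.96 and 2.40 CPM (lowest, median and highest) in the varenicline libraries, against 1.36, 1.59 and 1.81 CPM in the saline libraries. The varenicline libraries reached both below and above the whole saline range: varenicline 1, with 13 reads, and varenicline 2 lay below it, and the other 4 above it. The means were 1.82 ± 0.586 and 1.58 ± 0.1898 CPM (SD, n = 6 each), and the log2 fold change came to 0.20 (SE 0.22; adjusted p = 0.674 in edgeR), with a 95% interval from 0.834-fold to 1.59-fold. Without varenicline 1 it was 0.32 (edgeR adjusted p = 0.459; 0.459 to 0.9801 among all alternatives). Tlr4 (ENSMUSG00000039005, chromosome 4, 66827811 to 66842796), the lipopolysaccharide receptor gene, was as scarce, with 19 to 52 counts per library. It had 1.08, 1.51 and 2.14 CPM in the varenicline libraries and 1.22, 1.54 and 2.03 CPM in the saline libraries, so the saline values lay inside the varenicline range. Its log2 fold change came to 0.026 (SE 0.22; adjusted p = 0.966 in edgeR), with a 95% interval from 0.741-fold to 1.40-fold.

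The endosomal receptors were more abundant. Tlr3 (ENSMUSG00000031639, chromosome 8, 45395665 to 45410539), the receptor for double-stranded RNA, had 14.2, 17.6 and 21.9 CPM in the varenicline libraries and 17.2, 18.7 and 19.99 CPM in the saline libraries. Here too the varenicline range enclosed the saline range, with varenicline 1 lowest and varenicline 3 highest of all 12. The log2 fold change came to -0.043 (SE 0.086; adjusted p = 0.841 in edgeR), and without varenicline 1 it was 0.012. Tlr7 (ENSMUSG00000044583, chromosome X, 167304926 to 167330571), the receptor for single-stranded RNA, was the member with the smallest p. It had 5.04, 6.15 and 7.45 CPM in the varenicline libraries and 4.69, 5.20 and 6.55 CPM in the saline libraries. Of the varenicline libraries, 5 of 6 lay above the saline mean, and 2 of 6 above the highest saline library. Its log2 fold change of 0.20 (SE 0.13; adjusted p = 0.446 in edgeR) had a 95% interval from 0.951-fold to 1.38-fold, and 31.5% of all genes tested had a smaller p. Tlr7 was the one member whose sign was the same in all 25 alternatives, from 0.13 to 0.28.

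Il1r1 (ENSMUSG00000026072, chromosome 1, 40225080 to 40316177), which encodes the signalling receptor of interleukin-1, had 4.05, 5.78 and 6.72 CPM in the varenicline libraries and 4.31, 4.93 and 5.81 CPM in the saline libraries. The libraries varenicline 1, 3 and 5 lay above the highest saline library and varenicline 6 below the lowest. The log2 fold change came to 0.16 (SE 0.14; adjusted p = 0.5975 in edgeR), with a 95% interval from 0.907-fold to 1.37-fold. With the level of cortical neuron markers as a covariate it was -0.0060 (SE 0.19). Without varenicline 6 it was 0.24 (edgeR adjusted p = 0.270), and with both changes it was 0.31 (SE 0.26). Hmgb1 (ENSMUSG00000066551, chromosome 5, 149047227 to 149053037), a chromatin protein that acts on Tlr4 and other receptors once released from cells, had the narrowest interval. It had 150.5, 153.1 and 170.3 CPM in the varenicline libraries and 151.3, 160.4 and 167.0 CPM in the saline libraries, and 1 of 6 varenicline libraries lay above the saline mean. The log2 fold change came to -0.033 (SE 0.045; adjusted p = 0.751 in edgeR), with a 95% interval from 0.915-fold to 1.04-fold. Hmgb1 has processed copies of nearly the same sequence in the genome, so its counts are uncertain; the copy listed in the count table, Hmgb1-rs17, had 12 counts over all libraries.

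The adaptor gene Myd88 (ENSMUSG00000032508, chromosome 9, 119335988 to 119340040) had 4.93, 5.88 and 7.07 CPM in the varenicline libraries and 4.71, 5.95 and 6.34 CPM in the saline libraries, with a log2 fold change of 0.046 (SE 0.12, edgeR adjusted p = 0.878). Of its exon length, 11.7% overlaps exons of Acaa1a on the opposite strand, a peroxisomal thiolase gene at 50.4 CPM in the varenicline and 48.0 CPM in the saline libraries, and since the use of strand in counting is not given, some reads may belong to either gene. Rela (ENSMUSG00000024927, chromosome 19, 5637490 to 5648130), the p65 subunit gene, had 24.3, 25.7 and 30.6 CPM in the varenicline libraries and 22.4, 24.9 and 27.8 CPM in the saline libraries. Its log2 fold change came to 0.085 (SE 0.072; adjusted p = 0.575 in edgeR), with a 95% interval from 0.954-fold to 1.18-fold. Nfkb1 (ENSMUSG00000028163, chromosome 3, 135584655 to 135691547), the p50 precursor gene, had 19.8, 23.8 and 26.1 CPM in the varenicline libraries and 21.6, 24.0 and 26.1 CPM in the saline libraries. Its log2 fold change came to -0.033 (SE 0.079; adjusted p = 0.868 in edgeR), with a 95% interval from 0.8703-fold to 1.10-fold.

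Nfkbia (ENSMUSG00000021025, chromosome 12, 55489409 to 55492647), the feedback inhibitor gene whose promoter is printed above, is a member that NF-κB itself induces. It had 14.8, 16.1 and 19.8 CPM in the varenicline libraries and 14.1, 16.0 and 19.9 CPM in the saline libraries, nearly the same span in both groups. The log2 fold change came to 0.016 (SE 0.099; adjusted p = 0.952 in edgeR), with a 95% interval from 0.874-fold to 1.17-fold. The members with a κB match in a promoter, Nfkbia, Tlr2, Tlr3 and Il1r1, had log2 fold changes of 0.016, 0.20, -0.043 and 0.16.

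**Figure D2:**
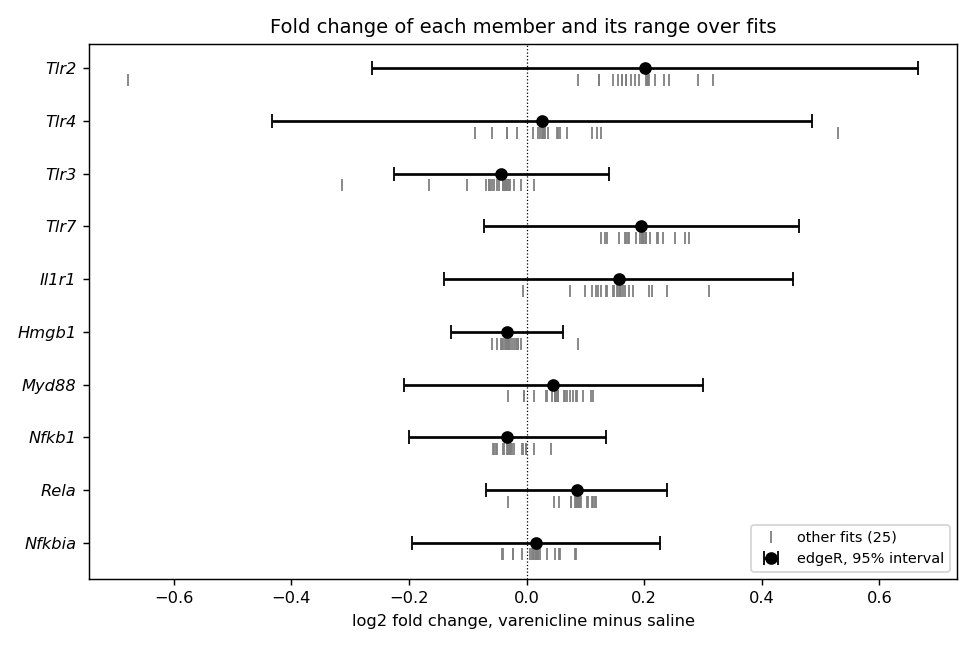
Log2 fold change of each member, varenicline minus saline, in edgeR (black point, bar the 95% interval) and in 25 other fits (grey ticks). Every interval crosses 0, the widest being those of the scarce Tlr2 and Tlr4 and the narrowest that of Hmgb1; the outlying ticks of Tlr2 (-0.68), Tlr3 (-0.31) and Tlr4 (0.53) come from the fit with the cortical marker level as a covariate and varenicline 6 left out. That fit can hardly separate treatment from the cortical level, and its SEs for these members were 0.40, 0.16 and 0.42.

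Levels of the members can be compared with each other once divided by exon length. Per kilobase of exon, Hmgb1 averaged 67.6 ± 3.30 CPM in the varenicline and 69.1 ± 2.69 CPM in the saline libraries (SD, n = 6 each), 6.57 times the next member over all 12 libraries. Nfkbia (10.4 ± 1.21 and 10.4 ± 1.44) and Rela (9.77 ± 0.856 and 9.21 ± 0.732) came next and did not separate, Nfkbia being the higher of the pair in 9 of 12 libraries. Nfkb1 (5.68 ± 0.592 and 5.81 ± 0.462) lay below Rela in all 12 libraries. Tlr3 (4.14 ± 0.571 and 4.28 ± 0.227) was the most abundant of the Toll-like receptor members, above Myd88 (3.12 ± 0.449 and 3.01 ± 0.322) in 11 of 12 libraries. The remaining order was Tlr7 (1.55 ± 0.229 and 1.35 ± 0.181), Il1r1 (1.104 ± 0.215 and 0.985 ± 0.112), Tlr2 (0.637 ± 0.205 and 0.554 ± 0.0665) and Tlr4 (0.411 ± 0.117 and 0.404 ± 0.0747). Of the 9 neighbouring pairs in this order, 3 had ranges that did not overlap over the 12 libraries: Hmgb1 over Nfkbia, Rela over Nfkb1, and Myd88 over Tlr7. In the other 6 pairs the ranges overlapped. The authors' deposited FPKM values gave the same order, from a mean of 77.0 FPKM for Hmgb1 to 0.425 FPKM for Tlr4. Among all genes tested, 93.7% lay below Hmgb1 on this per-length scale, 54.3% below Rela, 34.5% below Tlr3 and 5.42% below Tlr4.

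**Figure D3:**
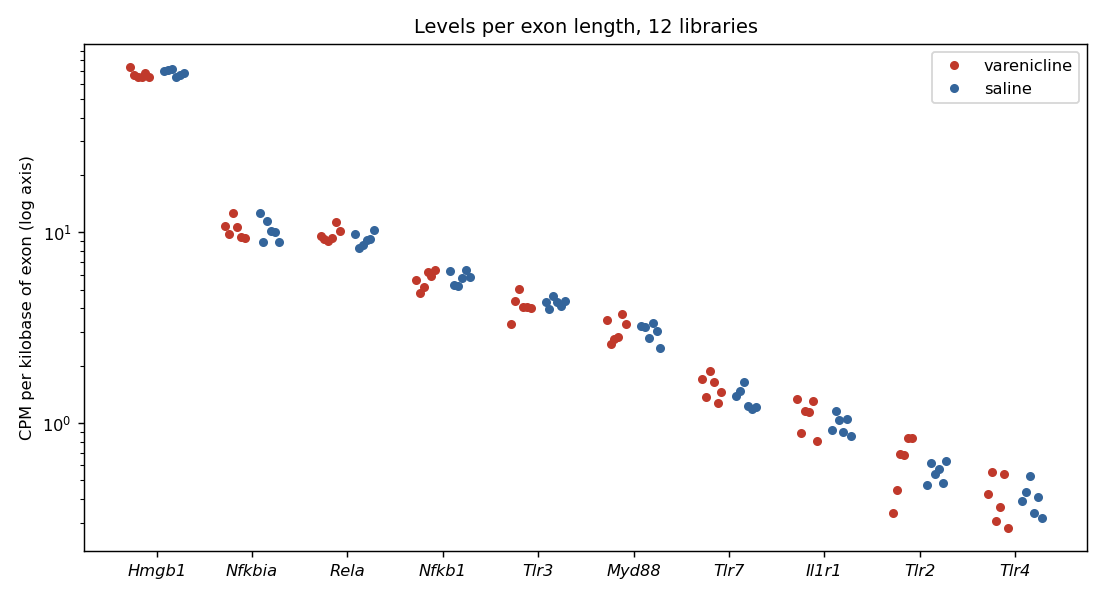
Level of each member in CPM per kilobase of exon, on a log axis, in the 6 varenicline (red) and 6 saline (blue) libraries, ordered by the mean. The members span from 0.411 (Tlr4) to 67.6 (Hmgb1) in the varenicline libraries and from 0.404 to 69.1 in the saline libraries, and neighbours such as Nfkbia and Rela overlap.

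The members also differed in how much they varied within a group. The SD of the CPM was larger among varenicline than among saline libraries for 9 of 10 members, all but Nfkbia, where 55.3% of all genes tested had the larger SD in the varenicline group. The ratio of the SDs was 3.09 for Tlr2, 2.52 for Tlr3 and 1.92 for Il1r1, and between 1.17 and 1.57 for the other 6; no test was made of it. Within groups, the coefficient of variation was 25.6% for Tlr2 and 24.1% for Tlr4, where counting alone would give 17.0% and 17.7%. It was lowest for Hmgb1, at 4.40% against 1.77% from counting. Over all 10 members the variance within groups was 1.85 to 6.21 times that of counting, lowest for Tlr4; this ratio was not tested.

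Across the 12 libraries, some members varied alongside other genes. Of 14221 other genes compared by Pearson's r of log2 CPM over the 12 libraries, those most like Il1r1 included Fam83d (r = 0.95, rho = 0.94, and r = 0.92 without the 2 libraries farthest from the Il1r1 median). The next were Ropn1l (r = 0.91, rho = 0.91, and r = 0.85) and Bbs10 (r = 0.89, rho = 0.94, and r = 0.88). Most like Nfkb1 was the interneuron factor gene Lhx6 (r = 0.91, rho = 0.94, and r = 0.86 without the 2 farthest), and most like Hmgb1 was Topors (r = 0.93, rho = 0.92, and r = 0.86). The 3 most like Tlr2 were Ccdc15 (r = 0.89, rho = 0.85, and r = 0.81), the microglial receptor gene Csf1r (r = 0.88, rho = 0.83, and r = 0.78) and the collagen gene Col27a1 (r = 0.86, rho = 0.73, and r = 0.77). Of the genes like Tlr3, Slc40a1 had r = 0.87 but r = 0.38 without its 2 farthest libraries and thus rests on those. These genes were picked for their likeness out of many, the libraries share depth and dissection, and no p is given.

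Markers of microglia and of endothelial cells, which carry several of the receptors, had similar means in both groups. All 18 microglia markers were detected in all 12 libraries, and their summed level was 800.6 to 986.4 CPM in the varenicline and 845.7 to 943.5 CPM in the saline libraries. The mean log2 CPM of the list was 5.17 ± 0.131 in the varenicline and 5.16 ± 0.0672 in the saline libraries (SD, n = 6 each; exact two-sided permutation p = 0.922, adjusted p = 0.965 over 12 lists), and in edgeR an unadjusted p under 0.05 was reached by 0 of the 18, against 16.9% of all genes. The lowest of all 12 libraries was varenicline 1, at 4.92, the library that was also lowest for Tlr2 and Tlr3. The same library stood at 6.79 CPM for Tlr7, above every saline library, and was the highest of all 12 for Il1r1 and Hmgb1. With the microglia level as a covariate the log2 fold changes were 0.16 for Tlr2 and 0.20 for Tlr7. Endothelial markers stood at 4.98 ± 0.0974 and 4.98 ± 0.0691 (exact permutation p = 0.965, adjusted p = 0.965), and with their level as a covariate Il1r1 had a log2 fold change of 0.16 (SE 0.12). The endothelial level was lowest in varenicline 1 (4.82), where Il1r1 was highest, and highest in varenicline 6 (5.10), where Il1r1 was lowest. The ependyma and choroid plexus level was highest in varenicline 1 (4.92) and lowest in varenicline 6 (2.76). Its part in the Il1r1 values was not tested. Astrocyte markers stood at 7.29 ± 0.0805 and 7.18 ± 0.0845 (exact permutation p = 0.0476, adjusted p = 0.143), with 10 of 11 markers higher and 3 of 11 at an unadjusted p under 0.05 in edgeR. In bulk tissue, fewer cells of a type and less RNA per cell cannot be told apart.

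Markers of neighbouring regions varied between libraries. The striatal markers Ppp1r1b and Rgs9 were abundant in both groups, at 1731 and 1108 CPM in the varenicline libraries and 1537 and 920.3 CPM in the saline libraries. All 13 listed markers of striatal projection neurons were higher, 5 at an unadjusted p under 0.05 in edgeR, against 16.9% of all genes. Markers of cortical excitatory neurons stood at 3.80 ± 0.806 in the varenicline and 4.82 ± 0.344 in the saline libraries (mean log2 CPM; exact permutation p = 0.0195, adjusted p = 0.0866), with varenicline 6, at 5.14, inside the saline range. All 14 of these markers were lower, 9 at an unadjusted p under 0.05 in edgeR, against 16.9% of all genes. Their summed level ran from 286.8 to 1225 CPM in the varenicline and from 803.3 to 1418 CPM in the saline libraries. Septal and pallidal markers stood at 2.98 ± 0.5399 and 2.40 ± 0.191 (exact permutation p = 0.0152, adjusted p = 0.0866). Of the 9 tested septal and pallidal markers 8 were higher, and 7 reached an unadjusted p under 0.05 in edgeR. Oligodendrocyte markers stood at 8.62 ± 0.141 and 8.47 ± 0.0941 (adjusted p = 0.161, exact permutation). Without varenicline 6 these 3 differences passed, with exact permutation p adjusted over the lists of 0.0260, 0.0346 and 0.0346. The part of these lists in the members' values was tested only for the cortical, microglial and endothelial lists, by the fits with a covariate. The other lists had adjusted p from 0.0866 to 0.727 in the same exact test: 0.0866 for blood, which rests on Alas2 alone since its other 4 genes are listed at 0, 0.312 for striatal projection neurons, 0.327 for blood monocytes, border macrophages and lymphocytes, 0.623 for ependyma and choroid plexus, 0.635 for oligodendrocyte precursors and 0.727 for pericytes and smooth muscle.

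**Figure D4:**
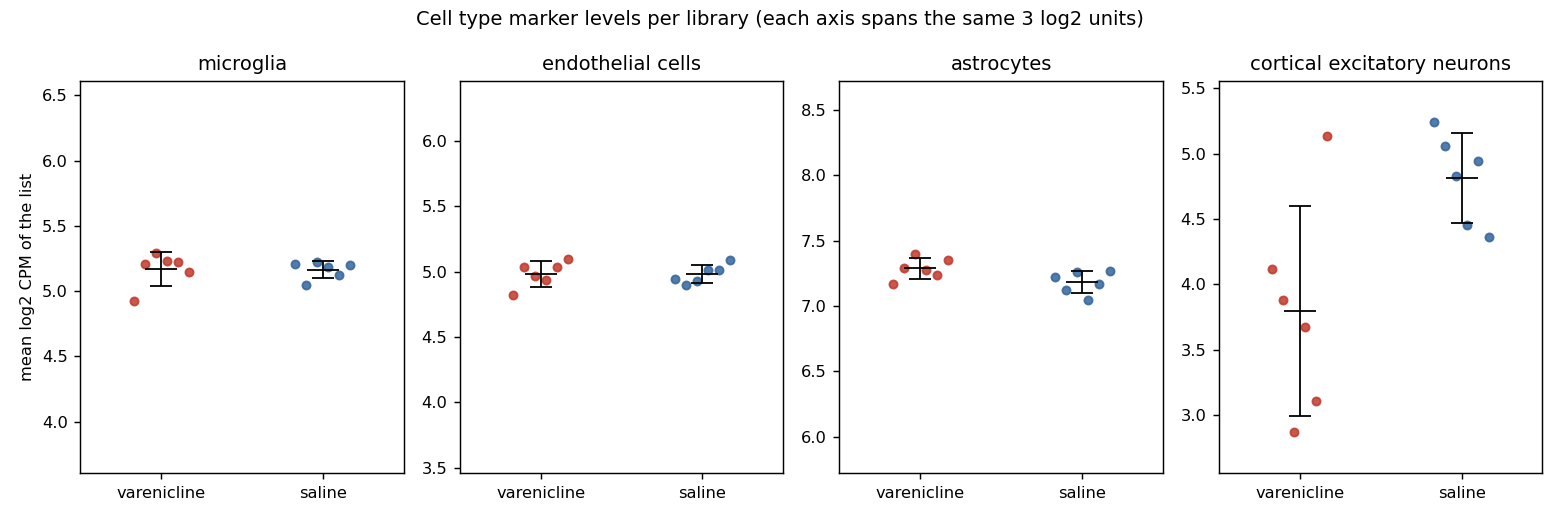
Mean log2 CPM of 4 marker lists per library, varenicline left and saline right, with mean ± SD; all axes span the same range of log2 units. Microglia and endothelial markers overlap between the groups (means 5.17 and 5.16, and 4.98 and 4.98), whereas 5 of the 6 varenicline libraries lie below every saline library in cortical neuron markers.

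Beyond the members, 103 other genes of the pathway were listed by role, and 80 had enough counts to be tested. Of the 80, 0 passed an adjusted p of 0.05 in edgeR, and 7 reached an unadjusted p under 0.05, 8.75% against 16.9% of all genes. All 7 were on the higher side, where over all genes 1100 of the calls at this threshold were higher and 1458 lower. The log2 fold changes of the 80 had a median of 0.035, against 0.0074 for all genes, with 45 higher and 35 lower. Of all genes tested, 52.3% were higher, the share to set beside the counts by role below. The 7 were the receptor genes Tlr5 and Cd14, the cytokine gene Il33, the signalling genes Traf6 and Irak1, and the regulators Tank and Cyld. With the cortical marker level as a covariate 1 gene of the 80 reached that unadjusted threshold. The share of all genes that did so in that fit is not given. The cortical level itself was lower in the varenicline libraries (3.80 against 4.82), and standard errors were larger with it, as 0.19 against 0.14 for Il1r1. The numbers 7 and 1 therefore cannot be read as a result about these genes.

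Traf6, the ubiquitin ligase through which Myd88 and interleukin-1 signals reach the NF-κB kinases, had the smallest p of the 80. It had 28.8, 33.4 and 37.1 CPM in the varenicline libraries and 24.9, 27.8 and 30.4 CPM in the saline libraries. All 6 varenicline libraries lay above the saline mean, though the groups overlapped. The log2 fold change was 0.25 (SE 0.069; adjusted p = 0.144 in edgeR). DESeq2 called it (adjusted p = 0.0384), as did limma-voom and edgeR without varenicline 6 (adjusted p = 0.00972). These fits called many genes: 387 with DESeq2, 2099 with limma-voom and 1628 without varenicline 6, against 0 in the main fit. For Traf6, 0.00972 and 0.913 were the lowest and highest adjusted p among the 25 alternatives. With the cortical covariate its log2 fold change was 0.1962. Its partner kinase gene Irak1 had 76.5 ± 4.97 CPM in the varenicline and 69.7 ± 4.84 CPM in the saline libraries (SD, n = 6 each), with a log2 fold change of 0.13 (SE 0.058, edgeR adjusted p = 0.258). Tirap, which bridges Tlr2 and Tlr4 to Myd88, had 4.42 ± 0.708 and 3.64 ± 0.691 CPM (0.29, SE 0.16, edgeR adjusted p = 0.355). Of the 24 adaptors and kinases, all tested, 14 were higher and 10 lower, with a median log2 fold change of 0.024.

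Among 18 tested receptors and co-receptors, 10 were higher and 8 lower. Cd14, the co-receptor that hands lipopolysaccharide to Tlr4, had 2.74, 3.74 and 4.23 CPM in the varenicline libraries and 2.06, 2.81 and 3.30 CPM in the saline libraries. Of the varenicline libraries 5 of 6 lay above the saline mean, and the log2 fold change came to 0.41 (SE 0.15; adjusted p = 0.194 in edgeR). Without varenicline 6 it was 0.49 (edgeR adjusted p = 0.0454; 0.0423 to 0.961 among all alternatives), and with the cortical covariate it was 0.21. The fit without varenicline 6 called 1628 of all genes. Tlr5, the flagellin receptor gene, had 1.04 ± 0.3696 CPM in the varenicline and 0.587 ± 0.155 CPM in the saline libraries, with a log2 fold change of 0.87 (SE 0.28, edgeR adjusted p = 0.157); limma-voom with sample weights was the one alternative of 24 that called it. That alternative called 2099 of all genes. Tlr1, the partner of Tlr2, had 0.837 ± 0.317 and 1.22 ± 0.431 CPM (-0.54, SE 0.304, edgeR adjusted p = 0.379), with all 6 varenicline libraries below the saline mean.

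Of 10 negative regulators 7 were higher and 3 lower, where 52.3% of all genes tested were higher. Cyld, a deubiquitinase that removes the chains built by Traf6, had 446 ± 63.8 CPM in the varenicline and 378.6 ± 38.2 CPM in the saline libraries. Its log2 fold change of 0.24 (SE 0.094, edgeR adjusted p = 0.218) was 0.32 without varenicline 6 (edgeR adjusted p = 0.00707; 0.00707 to 0.995 among all alternatives) and 0.0197 with the cortical covariate. Tank, an adaptor that restrains Traf6 activity, had 38.97 ± 2.05 and 34.7 ± 1.57 CPM, with all 6 varenicline libraries above the saline mean. Tank had a log2 fold change of 0.17 (SE 0.054; adjusted p = 0.162 in edgeR, 0.0287 when varenicline 6 was left out, and 0.0287 to 0.936 among all alternatives), and 0.103 with the cortical covariate. The fit without varenicline 6, which gave the lowest adjusted p of Cyld and of Tank, called 1628 of all genes. Otud7b, another deubiquitinase of the pathway, had 0.073 (edgeR adjusted p = 0.5855).

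The other NF-κB and IκB genes, the interferon regulatory factors and the target genes held 0 genes at an unadjusted p under 0.05. Of 8 tested NF-κB and IκB genes 3 were higher and 5 lower, the smallest p being that of Nfkb2, the p52 precursor gene, at 4.89 ± 0.784 CPM in the varenicline and 4.07 ± 0.682 CPM in the saline libraries (log2 fold change 0.26, SE 0.15, edgeR adjusted p = 0.376). Nfkbid and Nkrf had 0.21 and -0.14. Of the 5 interferon regulatory factors 4 were higher, against 52.3% of all genes tested, with 0.27 for Irf5, 0.12 for Irf3 and 0.13 for Irf8. Of 11 tested NF-κB target genes 3 were higher and 8 lower, with a median log2 fold change of -0.018. Nos2, the inducible nitric oxide synthase gene, had 0.888 ± 0.1015 CPM in the varenicline and 1.21 ± 0.468 CPM in the saline libraries (-0.43, SE 0.26, edgeR adjusted p = 0.406), and Ptgs2, the inducible cyclooxygenase gene that neurons also express, had 3.34 ± 1.06 and 4.38 ± 1.54 CPM (-0.39, SE 0.25, edgeR adjusted p = 0.438; 0.17 with the cortical covariate). Vcam1, an endothelial adhesion molecule gene, had 0.086 (SE 0.069, edgeR adjusted p = 0.553).

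Several cytokine genes at the head and the tail of the pathway, among them Tnf, Il6 and Il1b, had few counts in these libraries. In all, 23 listed genes fell below the count filter, with 0 counts (Cxcl2) to 102 counts (Bcl3) over the 12 libraries, where 3 counts correspond to between 0.107 and 0.225 CPM in a library. Of these, 6 had more counts in the varenicline libraries, 15 fewer and 2 the same number. These and the counts below are raw and not scaled for depth. The varenicline libraries held 13340420 to 24522349 counts each and the saline libraries 14040416 to 27917715. For example, S100a9 had 23 and 27 counts but a depth-scaled log2 fold change of 0.0048 in edgeR without the filter. Tnf had 10 counts over the 6 varenicline libraries and 7 over the 6 saline libraries, Il6 10 and 13, Il1b 6 and 24, Ccl2 8 and 4, and Cxcl10 12 and 37, of which 24 were in 1 saline library. Over all genes tested, 16.9% had an unadjusted p under 0.05 in the main edgeR fit, and the share without the filter is not given. In edgeR without the filter, 0 of the 22 with any counts passed an adjusted p of 0.05. At an unadjusted p under 0.05 there were 4 of the 22, near the share in the main fit. Those were Tlr8, a receptor gene related to Tlr7, with 29 counts in the varenicline and 6 in the saline libraries (adjusted p = 0.136 in edgeR), the decoy receptor gene Il1r2 with 6 and 24 (0.3203), the chemokine gene Cxcl1 with 2 and 14 (0.286) and the lipocalin gene Lcn2 with 18 and 5 (0.265). Besides Hmgb1, which was at -0.033, the listed ligand genes with enough counts were Il33, Il18, Il1a and Hmgb2, with log2 fold changes from 0.11 to 0.205. Il33, an alarmin that signals through Myd88, had 79.7 ± 11.1 CPM in the varenicline and 69.7 ± 3.54 CPM in the saline libraries (0.1957, SE 0.081, edgeR adjusted p = 0.242), and 0.069 with the cortical covariate. Il18 had 24.8 ± 2.39 and 22.2 ± 2.19 CPM (0.16, SE 0.081, edgeR adjusted p = 0.329) and Il1a 1.34 ± 0.377 and 1.16 ± 0.235 CPM (0.205, edgeR adjusted p = 0.683).

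**Figure D5:**
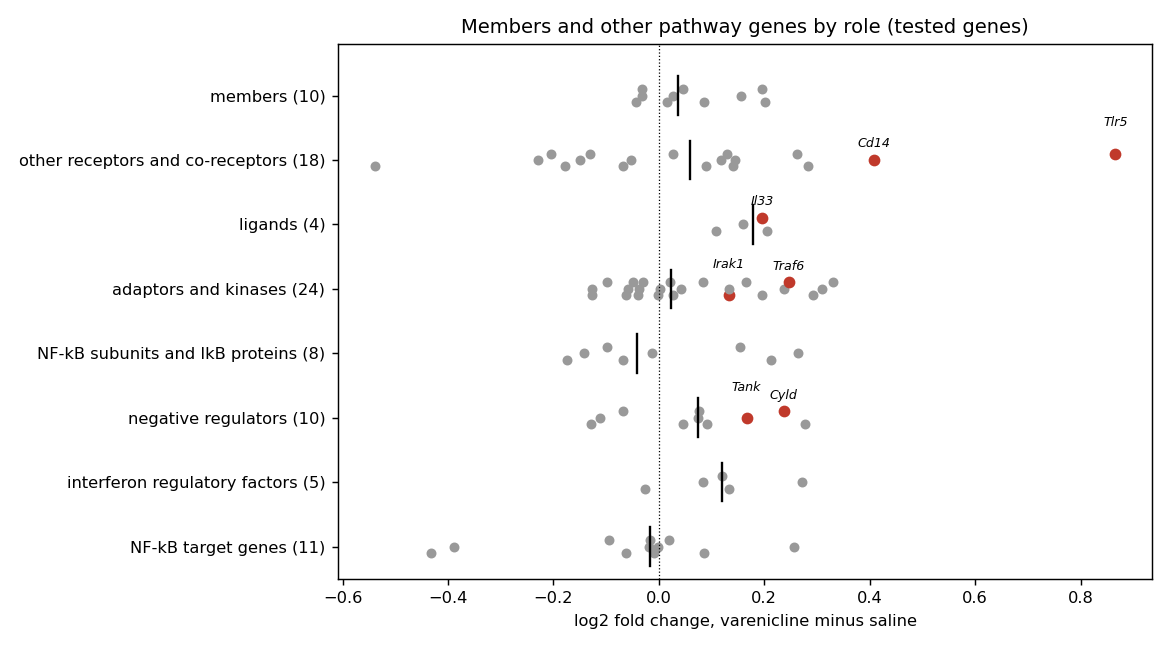
Log2 fold change, varenicline minus saline, of the 10 members and of the 80 other tested pathway genes, grouped by role (number of genes in brackets); red points reached an unadjusted p under 0.05 in edgeR and black bars are medians. All 7 red points, labelled by gene, lie on the higher side, against 1100 higher and 1458 lower among all genes at this threshold, and none is a member.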

How the data were processed

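Analysis began from the deposited table of counts per gene, which the authors had not normalized. The submitters' processing notes name mm10 and the tools featureCounts, TopHat2, Trimmomatic, FastQC, Cuffnorm, Cuffdiff and DESeq2, without their order or versions; the use of strand was not stated. The authors' deposited FPKM values and a deposited signal of scaled counts, by its name from Cuffnorm, served only in alternatives; exon length came from the count table per the file headers. Symbols turned into dates (27) were restored through their identifiers.

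Counts (13340420 to 27917715 per library) were filtered by filterByExpr, scaled by TMM and tested in edgeR 4.0.16 (R 4.3.3) by the quasi-likelihood F test, with p-values adjusted by Benjamini-Hochberg over 15148 genes. CPM are TMM-scaled. Intervals are 95%, from the fit. Marker levels are the mean log2 CPM (prior count 2) of a list, and groups were set against each other in an exact permutation test (two-sided, 924 assignments). The edgeR, DESeq2 and limma-voom fits were checked on simulated counts with a fixed dispersion common to all genes, and the permutation test on made-up values. The simulation held no dissection difference and changed only well-counted genes. Its recovery of changes therefore does not cover scarce members such as Tlr2 and Tlr4. Alternatives were other size factors, filters, DESeq2 1.42.0, limma 3.58.1 (voom with sample weights; log2 of FPKM plus 1 or 0.1; Cuffnorm values plus 1), marker levels as covariates, and each library left out.

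Members, lists and tests were chosen with earlier results of these data known. Named besides the members are the 3 tested genes of each role with the smallest p, and for likeness in pattern the 3 genes with the highest r per member, of which not all are given; Hmgb2 and the genes below the count filter that are named by symbol were chosen after their values were seen. Overlap of exons was read from GENCODE vM21, and 3 counts is the floor given for depth, which covers counting error only.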

Additional observations from a re-analysis of the deposited data

Results flagged for a closer look

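Of 44 sets of 6 values examined, the 10 members and 12 marker lists in each group, 2 had 1 library standing well apart; about 2.2 would be expected at 1 in 20. Neither concerned a member. The oligodendrocyte marker level of varenicline 6 was 8.34 in mean log2 CPM, below the other varenicline libraries at 8.63 to 8.76. That of saline 6 was 8.66, above the other saline libraries at 8.40 to 8.48. The part of the oligodendrocyte level in the members' values was not tested. In edgeR without varenicline 6, and likewise without saline 6, 0 members reached an unadjusted p under 0.05.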

How the results depend on the processing

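Under 25 alternatives, 0 members passed an adjusted p of 0.05 and 0 reached an unadjusted p under 0.05. The lowest adjusted p was 0.2701, for Il1r1 in edgeR without varenicline 6. Of 250 member values, 230 kept their sign and 20 turned, all of them between values that did not pass. With limma-voom Myd88 was at -0.032 and Nfkbia at -0.0073; with the cortical covariate Tlr4 at -0.033, Nfkb1 at 0.041, Nfkbia at -0.042 and Il1r1 at -0.0060; with that covariate and without varenicline 6 Tlr2 at -0.68, Rela at -0.031 and Hmgb1 at 0.088. Without varenicline 6 every varenicline library lies below every saline library in cortical level. That last fit can therefore hardly separate treatment from this level, and its SE for Tlr2 was 0.40, against 0.22 in the main fit. With each library omitted in turn, values ran from -0.102 to 0.012 for Tlr3, -0.088 to 0.13 for Tlr4, -0.0047 to 0.096 for Myd88, -0.057 to 0.013 for Nfkb1 and -0.041 to 0.084 for Nfkbia. The marker difference ran from -0.019 to 0.056 for microglia, -0.0201 to 0.035 for endothelial cells and -0.0003 to 0.053 for pericytes. The number of all genes past the adjusted threshold was 387 with DESeq2, 2099 with limma-voom, 3 on Cuffnorm values, 6 with the cortical, 4 with the microglia and 4 with the endothelial covariate, and 0 to 1628 leaving out each library, the highest without varenicline 6; the cause was not tested. Other pathway genes at an unadjusted p under 0.05 numbered 7, and 11 without a filter, 15 with limma-voom, 12 on each of the FPKM and Cuffnorm scales and 1 with the cortical covariate. The share of all genes at this unadjusted threshold is given only for the main fit. No paired analysis was possible because all titles carry the same replicate number. Depth limits Tlr2 and Tlr4 most, with 13 to 52 counts per library.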
